A study of Mus musculus with 2 samples.

Results

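The 10 genes described here build, cluster or report on the nicotinic acetylcholine receptor of skeletal muscle and its response to loss of the nerve. They are the receptor subunits Chrna1, Chrnb1, Chrnd, Chrng and Chrne, the agrin receptor genes Musk and Lrp4, the myogenic regulator Myog, the stress gene Gadd45a and the adhesion molecule Ncam1. They were taken by symbol, and all 10 were found among the 32287 genes of the count matrices. The question was in which cells of reinnervating muscle these genes were measured, and whether their levels differed after neutralization of secreted phosphoprotein 1 (SPP1, osteopontin).

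The muscle receptor is a pentamer of paired alpha subunits with a beta, a delta and either a gamma or an epsilon subunit. In developing and denervated fibers the gamma subunit is used and receptors are spread over the membrane. At the mature synapse epsilon replaces gamma, and agrin from the nerve binds LRP4 and activates MuSK, which clusters the receptors under the nerve terminal. Loss of electrical activity is known to raise MYOG, a basic helix-loop-helix factor that binds E-boxes in the subunit promoters, and GADD45A, MuSK and NCAM1 are known to be raised in denervated muscle too.

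The data are 2 single-cell RNA-seq libraries of hind limb muscle, each taken 7 days after crush of the peroneal nerve. The mice were male C57BL/6J by the labels, 10 to 16 weeks old, and carried the S100GFP-tg reporter, which labels Schwann cells. One library (IgG) came from mice injected with goat anti-mouse IgG and the other (SPP1-nAb) from mice injected with an SPP1 neutralizing antibody, 2 μg in 10 μL on the day of injury and then once every 2 days. The labels' protocol names the TA and GTN muscles of the hind limb, whereas the study's text names TA alone for this experiment, the muscle that was injected. Both libraries therefore share the injury, the reporter and the repeated injections, and no uninjured muscle is analysed here. Muscles of several mice were pooled into each library. The labels' protocol describes a sort of living GFP+ and GFP- cells, whereas the sample titles read S100GFP-pos. Which of these was sequenced is not settled here. With 1 library per group there is no replicate, so no difference between the libraries can be tested. All intervals below are 95% intervals that cover counting error only, and cells are not replicates. Multinucleated fibers do not pass a cell sorter, so the muscle cells seen here are the mononuclear ones and any fiber RNA that travels with other cells.

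The libraries held 23779 barcodes (IgG) and 25069 barcodes (SPP1-nAb) with 97607674 and 127719916 UMIs, and 163 barcode sequences occurred in both. A barcode was kept if it showed over 200 genes and under 10% of its UMIs were mitochondrial, which left 23385 and 24758, with median depths of 3822 and 4756 UMIs. A barcode was given a class when it held a UMI of at least 3 markers of exactly 1 of 11 classes, and no member of the gene set was a marker. The muscle lineage-like class had 1986 cells (8.49% of kept barcodes) in the IgG library and 1292 cells (5.22%) in the SPP1-nAb library. Pax7, the satellite cell transcription factor, is among the 14 markers that define this class. It was detected in 72.1% and 74.0% of these cells, against 2.05% and 1.65% of the other kept barcodes. That contrast is largely set by the gate and is no separate evidence of identity. Barcodes near the gate were common, since 491 and 317 of the muscle lineage-like cells had exactly 3 markers and a further 388 and 262 barcodes had exactly 2. A gated cell with at least 3 of 9 differentiation markers (such as Mymk, the fusion protein myomaker) was called differentiating myocyte-like, which gave 53 and 61 cells with median depths of 7880 and 9146 UMIs. Cells with at least 2 of 7 satellite markers and at most 1 differentiation marker were called satellite-like, 1847 and 1128 cells with median depths of 2274 and 3183.5 UMIs. The cells gated to any other class, 18030 and 20041, served as the comparison. Of these, 13487 and 16927 were mononuclear phagocyte-like, so a fold over the comparison mostly reflects that class.

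The upstream sequences of the subunit genes and of Myog are given first, because Myog encodes a factor of the kind that reads E-boxes and the letters can be set beside the levels that follow. The RefSeq table of promoters (GRCm38.p6) held 7 of the 10 genes. The promoters of Chrnd, Lrp4 and Ncam1 were not analysed here. Each line gives the 250 bases before the annotated start, 5′ to 3′ on the gene's strand, for Chrna1 (chr2:73580339-73580588, minus strand), Chrng (chr1:87205561-87205810, plus strand), Chrne (chr11:70619195-70619444, minus strand) and Myog (chr1:134289754-134290003, plus strand). Capitals mark E-boxes (CANNTG) and the N-box letters CCGGAA, searched on both strands.
Chrna1: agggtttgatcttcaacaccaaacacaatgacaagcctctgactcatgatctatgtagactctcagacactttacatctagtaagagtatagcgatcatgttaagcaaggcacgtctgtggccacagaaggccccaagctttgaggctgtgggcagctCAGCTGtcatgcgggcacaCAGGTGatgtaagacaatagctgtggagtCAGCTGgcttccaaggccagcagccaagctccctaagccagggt
Chrng: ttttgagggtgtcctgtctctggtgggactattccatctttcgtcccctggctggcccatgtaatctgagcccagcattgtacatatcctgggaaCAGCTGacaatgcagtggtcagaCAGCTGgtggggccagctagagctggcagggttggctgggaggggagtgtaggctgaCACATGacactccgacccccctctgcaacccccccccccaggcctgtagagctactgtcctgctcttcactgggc
Chrne: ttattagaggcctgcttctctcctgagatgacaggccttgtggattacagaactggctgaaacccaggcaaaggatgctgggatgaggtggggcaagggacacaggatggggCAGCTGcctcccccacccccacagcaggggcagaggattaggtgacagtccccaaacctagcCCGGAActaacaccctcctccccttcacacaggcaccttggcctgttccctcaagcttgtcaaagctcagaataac
Myog: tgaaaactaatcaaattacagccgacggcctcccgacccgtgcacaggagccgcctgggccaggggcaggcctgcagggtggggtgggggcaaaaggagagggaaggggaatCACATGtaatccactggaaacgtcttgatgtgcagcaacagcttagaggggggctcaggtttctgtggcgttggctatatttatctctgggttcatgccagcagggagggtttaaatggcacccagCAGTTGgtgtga

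Chrna1 and Chrng, the alpha subunit and the fetal gamma subunit, each had 3 E-boxes in this window, and in both genes 2 of the 3 read CAGCTG, a subset of CANNTG. Those of Chrna1 began 92 and 44 bases before the start, and those of Chrng 155 and 132 bases before it. At least 2 CAGCTG were present in 1.26% of the 32851 promoters of the table, and at least 3 E-boxes of any kind in 12.2%. Chrne, the adult epsilon subunit, had 1 E-box and was the only subunit gene of the 4 with a promoter in the table that held CCGGAA, which 12.03% of all promoters held. Chrnb1 and Musk had 3 E-boxes each, none and 1 of them CAGCTG, Myog had 2 and Gadd45a 1. At least 1 E-box was present in 66.2% of all promoters, so its presence in all 7 is a description of the letters and not of binding.

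The receptor subunits other than Chrne were measured mainly in the muscle lineage. The summed level of all 5 subunits, Chrne included, was 149.6 UMIs per 1000000 UMIs of the class (CPM, interval 140.0 to 159.8) in IgG muscle lineage-like cells. In SPP1-nAb ones it was 148.3 CPM (138.5 to 158.7). In the other gated cells the sum was 2.06 and 1.21 CPM, 72.5-fold (61.2 to 86.3) and 123-fold (102 to 149) lower. Chrne gave 22 of the 160 UMIs of that sum in IgG and 19 of the 128 in SPP1-nAb. Muscle lineage-like cells held 69.7% and 67.5% of all subunit UMIs of the kept barcodes. The fold depended on which barcodes were put in the comparison, and against all remaining kept barcodes, those of no class or of several classes included, the log2 ratio was 5.14 and 5.48 in place of 6.18 and 6.94. Fewer muscle cells and less receptor RNA per cell cannot be told apart in a sum over barcodes, so levels are given as CPM of each class.

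Chrna1 (chr2:73393557-73410835, GRCm39, minus strand), the subunit that contributes most of the ligand binding site, had 81.9 CPM (488 UMIs) in IgG muscle lineage-like cells and 91.3 CPM (517 UMIs) in SPP1-nAb ones. In the other gated cells it had 0.477 and 0.358 CPM, 172-fold (123 to 247) and 255-fold (183 to 364) lower. Mononuclear phagocyte-like cells, which should lack the gene, had 0.456 and 0.377 CPM. Chrnb1, the beta subunit, had 58.9 CPM (351 UMIs) and 37.6 CPM (213 UMIs) in muscle lineage-like cells, 50.2-fold and 66.5-fold over the other gated cells. Single classes lay closer to muscle. The highest were tenocyte-like cells in IgG, 10.9 CPM (17 UMIs), and endothelial-like cells in SPP1-nAb, 18.2 CPM (12 UMIs). Chrnd (chr1:87118306-87127795, GRCm39) and Chrng (chr1:87132379-87140416) lie in tandem on the plus strand, with 4583 bases between them. Chrnd, the delta subunit, was counted on few molecules, 13 UMIs (2.18 CPM) in IgG and 41 UMIs (7.24 CPM) in SPP1-nAb muscle lineage-like cells. Chrng had 40 UMIs (6.71 CPM) and 69 UMIs (12.2 CPM) there. Against the other gated cells the Chrnd ratio was 42.3-fold (13.1 to 178) and 256-fold (81.7 to 1293), and the latter rests on 3 UMIs in the other cells. The Chrng ratio was 86.7-fold (36.5 to 250) and 162-fold (77.6 to 389). All 4 of these subunits were thus higher in muscle lineage-like cells in each library, by more than the counting interval.

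Chrne (chr11:70505707-70510125, GRCm39, minus strand) gave no UMI in muscle lineage-like cells of either library, where 3 UMIs would be 0.503 and 0.530 CPM. Of the UMIs of Chrng and Chrne together, 40 of 40 in IgG and 69 of 69 in SPP1-nAb muscle lineage-like cells were Chrng, a share of 100% (exact binomial interval 91.2 to 100 and 94.8 to 100). The split was the other way in mononuclear phagocyte-like cells, where Chrng had 5 of 22 UMIs (22.7%, 7.82 to 45.4) and 6 of 23 (26.1%, 10.2 to 48.4). The 17 Chrne UMIs of phagocyte-like cells in each library were spread over 16 and 17 cells, at 0.287 and 0.183 CPM. Both values are under the level of 3 UMIs in muscle lineage-like cells. Whether Chrne was lower in muscle than in phagocyte-like cells thus cannot be read from the absence of UMIs. Chrne is overlapped on the opposite strand by 4930544D05Rik, without a shared exon. The adult epsilon subunit was therefore not detectable at this depth in the mononuclear muscle cells, while the fetal gamma subunit was.

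**Figure D1:**
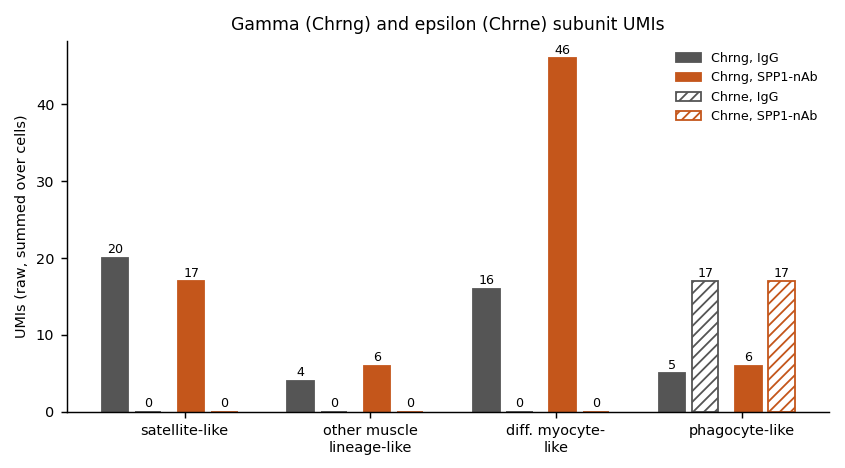
Raw UMIs (vertical axis, summed over cells) of Chrng (filled bars) and Chrne (hatched bars) in the 3 muscle lineage-like states and in mononuclear phagocyte-like cells, by library, with the count above each bar. Chrng reached 16 (IgG) and 46 UMIs (SPP1-nAb) in differentiating cells, Chrne had 0 in all muscle states, and phagocyte-like cells had 17 Chrne UMIs in each library.

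Musk, the kinase of the agrin receptor, was also a muscle lineage gene, with 139 CPM (829 UMIs) in IgG and 101 CPM (573 UMIs) in SPP1-nAb muscle lineage-like cells, 30.7-fold and 50.4-fold over the other gated cells. It was not confined to them. Mesenchymal-like cells had 19.0 and 16.8 CPM and tenocyte-like cells 21.7 and 8.53 CPM, while phagocyte-like cells had 1.11 and 0.851 CPM. Lrp4, the agrin-binding partner, did not follow Musk. It had 23 UMIs (3.86 CPM) and 22 UMIs (3.89 CPM) in muscle lineage-like cells, and its log2 ratio over the other gated cells was -0.55 (-1.22 to 0.06) and -0.01 (-0.70 to 0.61). Higher values were found in Schwann-like cells, 23.0 and 12.1 CPM, and in tenocyte-like cells, 21.1 and 12.8 CPM. Because they were so many, phagocyte-like cells held 47.5% and 61.3% of all Lrp4 UMIs, at 4.54 and 3.63 CPM, with no more than 3 UMIs in any 1 cell.

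Myog had 198.5 CPM (1183 UMIs) and 201.8 CPM (1143 UMIs) in muscle lineage-like cells against 0.206 and 0.4995 CPM in the other gated cells, a ratio of 962-fold (589.7 to 1688) and 404-fold (307 to 543). Gadd45a, a growth arrest and DNA damage inducible gene, had 229.8 CPM (1370 UMIs) and 176.2 CPM (998 UMIs) there, 8.95-fold and 8.24-fold over the other gated cells. It was higher still in Schwann-like cells, at 373 and 362 CPM, and was measured in neutrophil-like cells too, at 107 and 121 CPM. Ncam1, the neural cell adhesion molecule carried by satellite cells and denervated fibers, had 489 CPM (2912 UMIs) and 407 CPM (2306 UMIs) in muscle lineage-like cells, 39.5-fold and 58.55-fold over the rest. Schwann-like cells had 183 and 138 CPM of Ncam1 and tenocyte-like cells 160.4 and 99.1 CPM. In CPM, 4 subunits, Musk and Myog were thus higher in muscle lineage-like cells than in any other gated class, Gadd45a and Ncam1 were also measured in Schwann-like and tenocyte-like cells, and Lrp4 had no excess in muscle. Several classes with 0 UMIs of Chrnd or Chrng were too shallow to show a level as low as that in muscle. For Chrnd in IgG, at 2.18 CPM in muscle, 3 UMIs would be 2.30 CPM in Schwann-like and 4.63 CPM in endothelial-like cells. They would be 7.19 CPM in mural-like and 8.01 CPM in neutrophil-like cells, and the T or NK and B classes had fewer UMIs still. Against these classes the order of Chrnd in IgG is not settled.

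A gene was counted in a comparison when it had at least 100 UMIs over both sides of it, and a difference of at least 2-fold was the rule of size, with no test behind it. Of the 10 members 7 had that many UMIs, and 6 of the 7 were at least 2-fold higher in muscle lineage-like than in other gated cells in either library, the exception being Lrp4. Of all genes counted the same way 15.8% (IgG) and 20.7% (SPP1-nAb) were. The members Chrnd, Chrng and Chrne were under the minimum there, and the first 2 of them had the ratios given above.

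**Figure D2:**
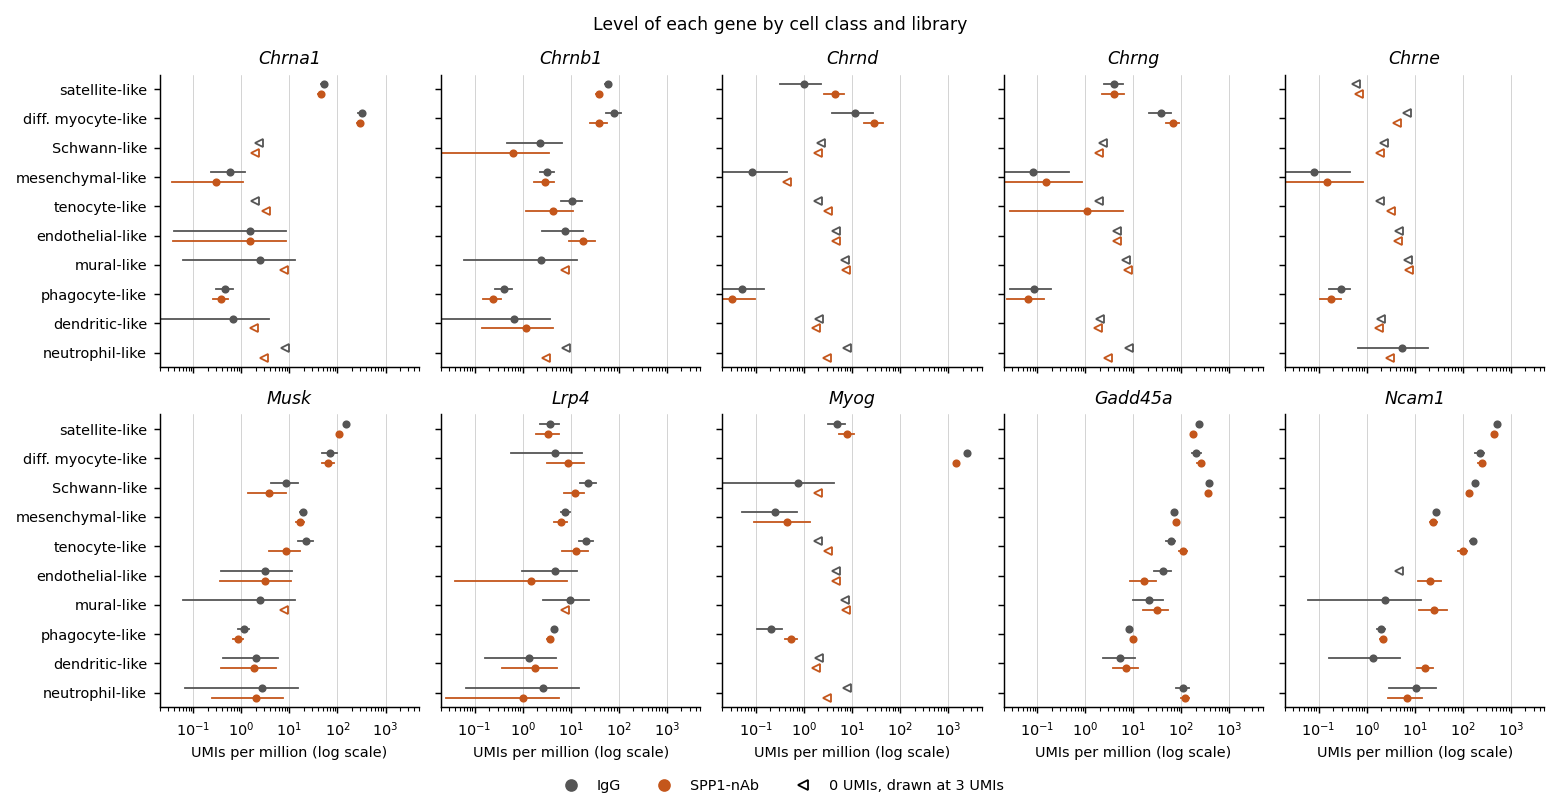
Level of each member in CPM (horizontal log axis) by cell class, muscle state and library, points with 95% exact Poisson intervals and open triangles at the level of 3 UMIs where the count is 0. The subunits other than Chrne, Musk and Myog stood highest in the muscle states, while Gadd45a stood at 373 and 362 CPM in the Schwann-like cells and Lrp4 had no excess in muscle. Where a triangle lies above the point of a muscle state, their order cannot be read.

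Within the muscle lineage the members parted into those that were higher in differentiating myocyte-like cells and those that were higher in satellite-like cells. Chrna1 had 51.9 CPM in satellite-like and 319 CPM in differentiating cells of the IgG library, and 45.3 and 299.3 CPM in the SPP1-nAb library, log2 ratios of 2.62 (2.31 to 2.92) and 2.73 (2.44 to 3.01). Myog had 4.90 against 2521 CPM in IgG and 7.81 against 1452 CPM in SPP1-nAb, log2 ratios of 9.01 and 7.54. Chrng stood lower in satellite-like cells, going from 3.92 to 37.3 CPM in IgG (20 and 16 UMIs) and from 3.91 to 66.2 CPM in SPP1-nAb (17 and 46 UMIs), log2 ratios of 3.25 (2.20 to 4.27) and 4.08 (3.25 to 4.98). These genes were higher in the differentiating cells of each library. Chrnd showed the same order, with 5 UMIs in each state of the IgG library (0.979 and 11.6 CPM) and 19 and 20 UMIs in the SPP1-nAb library (4.37 and 28.8 CPM). Chrnb1 did not, with log2 ratios of 0.43 (-0.13 to 0.94) and 0.00 (-0.64 to 0.59) whose intervals include 0. The sum of the subunits had log2 ratios of 1.95 (1.71 to 2.19) and 2.23 (2.01 to 2.45).

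Musk and Ncam1 were lower in the differentiating cells. Musk had 149 CPM in satellite-like and 69.8 CPM in differentiating cells of the IgG library, and 109 and 64.8 CPM in the SPP1-nAb library, log2 ratios of -1.09 (-1.67 to -0.56) and -0.75 (-1.22 to -0.31). Ncam1 had 521 and 223.5 CPM in IgG and 449.7 and 247.5 CPM in SPP1-nAb, log2 ratios of -1.22 (-1.53 to -0.93) and -0.86 (-1.09 to -0.64). Gadd45a gave no common direction, at -0.21 (-0.54 to 0.10) in IgG and 0.52 (0.28 to 0.76) in SPP1-nAb, and the latter turned to -0.56 when the markers were counted after every barcode had been thinned to 2000 UMIs. Lrp4 had 2 and 6 UMIs in differentiating cells, which is too few to place it. Of the 6 members with at least 100 UMIs over both states, Chrna1 and Myog were at least 2-fold higher in differentiating cells in both libraries, where 11.7% (IgG) and 11% (SPP1-nAb) of all genes counted were. In the opposite direction Musk and Ncam1 passed 2-fold in the IgG library only, which is a count by threshold and no difference between the libraries, and 26.8% (IgG) and 26.4% (SPP1-nAb) of all genes counted did.

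The levels were also set along the number of differentiation markers a muscle lineage-like cell held, grouped as 0, 1, 2, 3 to 4, and 5 to 9. The states were cut on this number and hold the same cells. The groups therefore show the split in finer steps and are no separate observation of it. Chrna1 stood at 42.0, 126, 242, 145 and 379 CPM over these groups in the IgG library and at 23.5, 137, 215, 233 and 352 CPM in the SPP1-nAb library. Myog went from 0.677 to 53.1, 220.4, 913 and 3079 CPM in IgG and from 0.286 to 61.4, 193, 577 and 2152 CPM in SPP1-nAb. Chrna1 was thus already higher in cells with a single differentiation marker than in those with none, and Myog was higher at every step. Chrng had 3.38, 5.77, 17.3, 0 and 50.2 CPM in IgG and 2.01, 11.3, 9.34, 16.2 and 106 CPM in SPP1-nAb, highest in the cells with the most markers. Musk had 149, 142, 69.2, 72.3 and 69.0 CPM in IgG and 113, 102, 46.7, 68.0 and 62.1 CPM in SPP1-nAb, so that its lower level began at 2 markers. The group with 3 to 4 markers in the IgG library has only 18 cells, and without it Chrna1 was higher at each step there as well. Depth differed along the order too, with median UMIs of 2204 and 2985 in cells with no differentiation marker and of 8392 and 10425 in those with 5 to 9, and its part in the order was not tested.

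**Figure D3:**
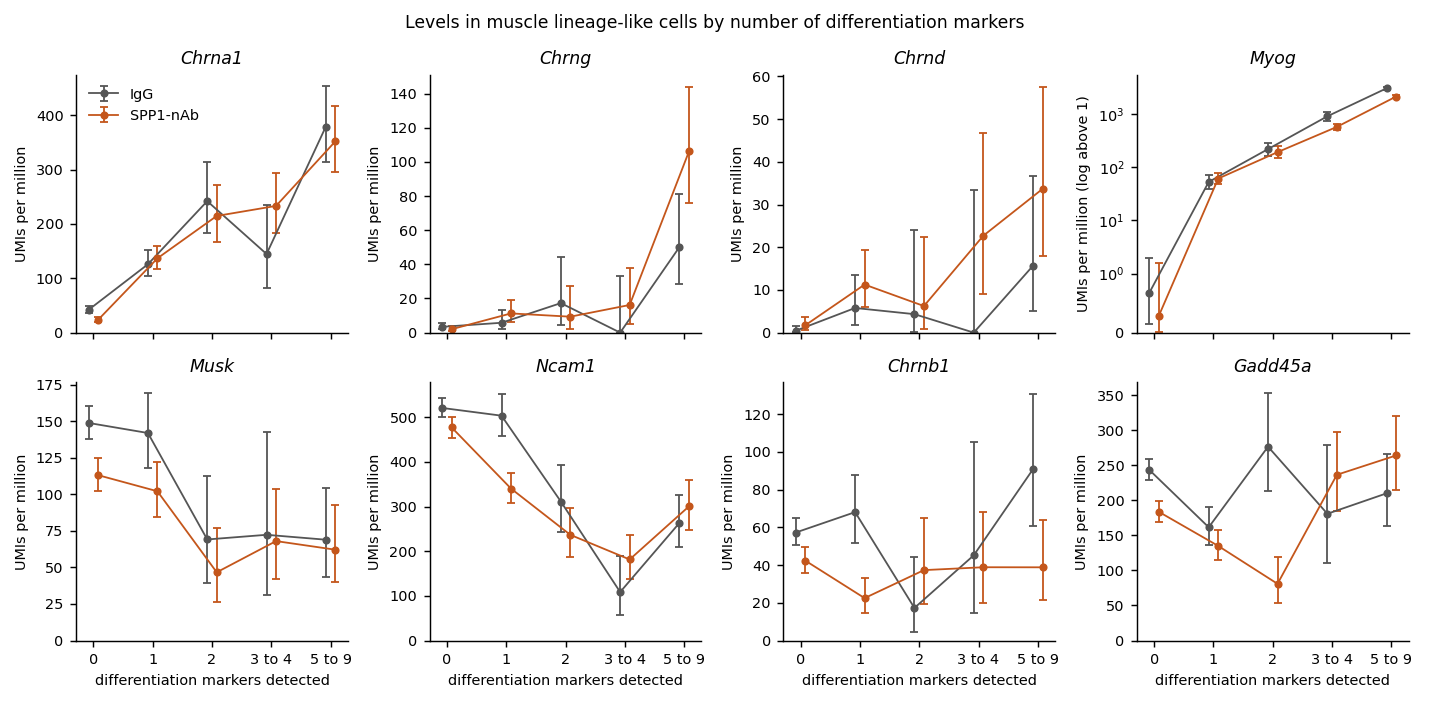
Level of Chrna1, Chrng, Chrnd, Myog, Musk, Ncam1, Chrnb1 and Gadd45a in CPM (linear axes, for Myog logarithmic above 1) against the number of differentiation markers in a muscle lineage-like cell, by library, with 95% exact Poisson intervals. Myog was higher with each group, to 3079 CPM (IgG) and 2152 CPM (SPP1-nAb), while Musk stood at 69.0 and 62.1 CPM in the cells with 5 to 9 markers against 149 and 113 CPM in those with none.

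Per cell, a Chrna1 UMI was found in 73.6% (IgG) and 75.4% (SPP1-nAb) of differentiating cells at their own depth. After every cell was thinned to 2000 UMIs the shares were 39.2% (25.8 to 53.9) of 51 cells and 42.4% (29.6 to 55.9) of 59 cells. In satellite-like cells thinned alike they were 6.99% (5.59 to 8.61) and 5.32% (3.93 to 7.01), from 10.2% and 9.66% before thinning. Phagocyte-like cells, with median depths of 4085 and 5136 UMIs, gave 0.112% and 0.0932% thinned and 0.193% and 0.183% unthinned. The share in satellite-like cells was therefore above that of a cell type that should lack the gene. The shares that follow are at the cells' own depth, without thinning. Cells with both a Chrna1 and a Myog UMI made up 67.9% and 63.9% of differentiating cells. At least 3 different subunits were seen in 8 of 53 (15.1%, 6.75 to 27.6) and 18 of 61 (29.5%, 18.5 to 42.6), all 5 in 0 of either, and no subunit in 17.0% and 18.0%. In satellite-like cells at least 1 subunit UMI was present in 22.7% and 22.3%. These unthinned shares also hold the difference in depth between states and libraries. Median depths were 7880 and 9146 UMIs in differentiating and 2274 and 3183.5 UMIs in satellite-like cells.

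Myog was carried unevenly by the differentiating cells. The 10 cells with the most Myog UMIs held 39.9% of them in the IgG library and 60.2% in the SPP1-nAb library, while 9 of 53 and 14 of 61 cells had no Myog UMI. Differentiating cells also carried much mature fiber RNA. The sum of 10 fiber genes (among them Acta1, skeletal actin, and Ckm, muscle creatine kinase) stood in them at 26194 CPM (IgG) and 26301 CPM (SPP1-nAb), against 117 and 125 CPM in satellite-like cells and 148 and 82.5 CPM in phagocyte-like cells. Kept barcodes of no class had 6389 and 6561 CPM of fiber RNA. Per 100 fiber UMIs, Chrna1 had 1.22 and 1.14 UMIs in differentiating cells, 44.2 and 36.3 in satellite-like cells, and 0.108 and 0.126 in barcodes of no class. The ratio of Chrna1 to fiber RNA was thus not the same in these groups, being lower in the barcodes of no class than in the differentiating cells.

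The comparison of SPP1-nAb with IgG asks whether the antibody left these genes at another level. The sum of the subunits in muscle lineage-like cells had a log2 ratio of -0.01 (-0.15 to 0.12), where the median over all 8472 genes counted was 0.03 with quartiles of -0.16 and 0.23. None of the 7 members with at least 100 UMIs was 2-fold higher or lower, and 0.791% and 1.14% of all genes counted were. In satellite-like cells the sum was lower in SPP1-nAb, 92.4 against 115.7 CPM, a log2 ratio of -0.33 (-0.51 to -0.14). It was -0.05 (-0.31 to 0.22) in differentiating cells and -0.21 (-0.58 to 0.17) in muscle lineage-like cells of neither state. The value of the whole lineage thus lies above that of each state. Without the 5% of barcodes with the most UMIs the sum over the lineage was lower in SPP1-nAb, at -0.51 (-0.69 to -0.33).

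The subunits did not all lie on that sum. Chrnb1 was lower in SPP1-nAb, 37.6 against 58.9 CPM, a log2 ratio of -0.65 (-0.90 to -0.40). The ratio was -0.60 (-0.88 to -0.33) in satellite-like and -1.03 (-1.81 to -0.25) in differentiating cells, and it stayed between -0.68 and -0.50 in muscle lineage-like cells under all 10 alternatives tried. Chrnb1 was lower over the other gated cells too, a mix of classes, at -1.05 (-1.55 to -0.57). Within them it had -0.77 (-1.68 to 0.12) in phagocyte-like and -0.19 (-1.06 to 0.63) in mesenchymal-like cells. In tenocyte-like cells it had -1.35 (-3.38 to 0.27) and in endothelial-like cells 1.24 (-0.37 to 3.10). Chrna1 had a log2 ratio of 0.16 (-0.02 to 0.34), with -0.20 in satellite-like and -0.09 in differentiating cells. Its value for the whole lineage lies above those of both states, and it was -0.56 without the 5% deepest barcodes. Chrnd was higher in SPP1-nAb, 41 against 13 UMIs, a log2 ratio of 1.73 (0.80 to 2.76), and in satellite-like cells 19 against 5 UMIs, 2.16 (0.69 to 3.93). It was under the minimum of 100 UMIs and so was not among the 7. Chrng was higher over the lineage, 0.86 (0.28 to 1.46), yet had 0.00 (-1.03 to 1.00) in satellite-like cells and 0.83 (-0.02 to 1.75) in differentiating cells. Without the 5% deepest barcodes its ratio over the lineage was 0.17.

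The differentiating cells were 2.67% (2.01 to 3.48) of the muscle lineage-like cells in IgG and 4.72% (3.63 to 6.02) in SPP1-nAb, and their depth differed as well. When the markers were counted after thinning to 2000 UMIs the shares were 3.22% (2.24 to 4.47) and 3.03% (1.93 to 4.51). A level over the whole lineage therefore also holds the mix of states, and the share at the cells' own depth cannot be told apart from the difference in depth. The differentiating state was itself made up differently in the libraries. In IgG 18 of its cells held 3 to 4 markers and 35 held 5 to 9, against 32 and 29 in SPP1-nAb. Ratios within that state hold this mix too, and its part in them was not tested.

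Of the other members, Musk was lower in SPP1-nAb muscle lineage-like cells, -0.46 (-0.61 to -0.30), as it was in satellite-like cells, -0.45 (-0.62 to -0.28). Gadd45a had -0.38 (-0.50 to -0.26) and Ncam1 -0.26 (-0.34 to -0.18) over the lineage. These 3 and Chrnb1 are the members whose interval lay below 0. How many of all genes had such an interval was not counted, so this is no result about the members. Over all other gated cells, a mix of classes that differed between the libraries, Musk, Gadd45a and Ncam1 were lower in SPP1-nAb too. The ratios there were -1.17 (-1.43 to -0.92) for Musk, -0.26 (-0.35 to -0.18) for Gadd45a and -0.83 (-0.97 to -0.69) for Ncam1. The mix held 2329 mesenchymal-like cells in IgG and 891 in SPP1-nAb, and its classes differed. Musk had -0.18 (-0.52 to 0.15) in mesenchymal-like, -0.39 (-0.88 to 0.11) in phagocyte-like and -1.35 in tenocyte-like cells. Gadd45a had 0.18, 0.28 and 0.87 in these, and -1.32 in endothelial-like cells. Ncam1 had 0.17 (-0.17 to 0.51) in phagocyte-like, -0.41 in Schwann-like and -0.69 in tenocyte-like cells. In differentiating myocyte-like cells the ratios were -0.11 (-0.81 to 0.61) for Musk, 0.31 (-0.06 to 0.70) for Gadd45a and 0.15 (-0.22 to 0.52) for Ncam1. That of Gadd45a ran from -0.80 to 0.77 under the alternatives tried, so its sign depends on the gate. Over the lineage Lrp4 had 0.01 (-0.90 to 0.92). Myog had 0.02 (-0.09 to 0.14) over the lineage and -0.80 (-0.92 to -0.67) in differentiating cells, 1452 against 2521 CPM, but -0.14 (-0.28 to 0.00) there when the markers were counted after thinning. In differentiating cells 4 members had at least 100 UMIs and none passed 2-fold, where 3.03% and 3.09% of the genes counted were higher and lower.

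**Figure D4:**
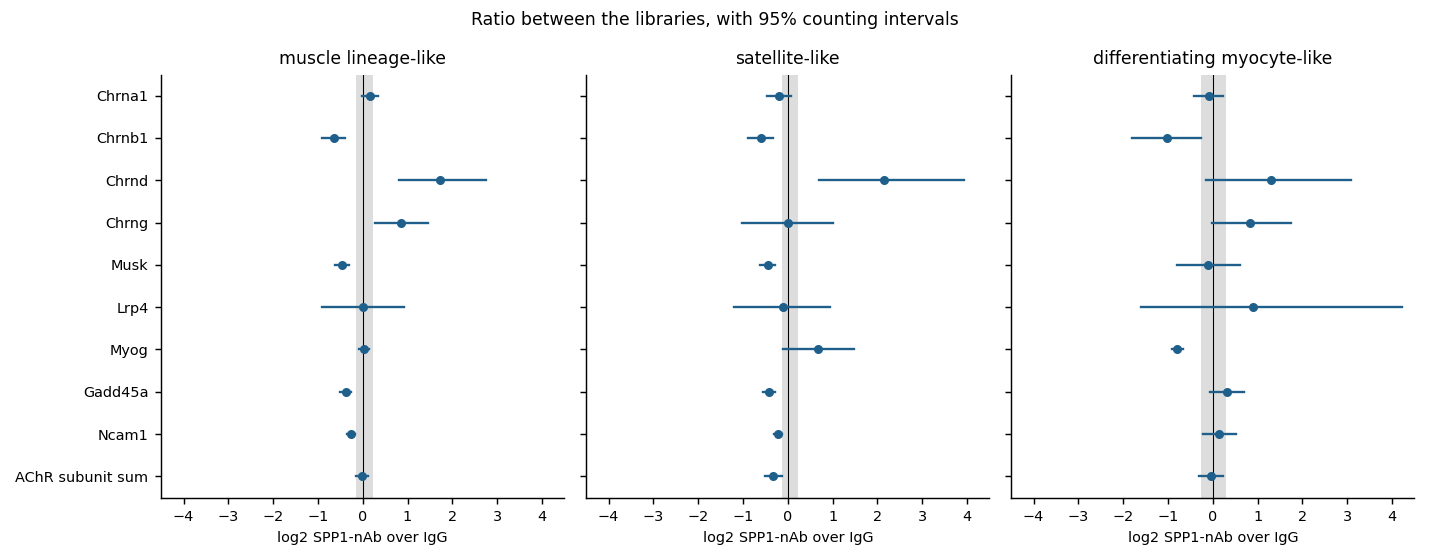
Log2 ratio of SPP1-nAb over IgG for each member in muscle lineage-like, satellite-like and differentiating myocyte-like cells, with 95% intervals of counting error. Chrnb1 lay below 0 in all 3 groups (-0.65, -0.60 and -1.03), and Chrnd above 0 in the lineage (1.73).

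**Figure D5:**
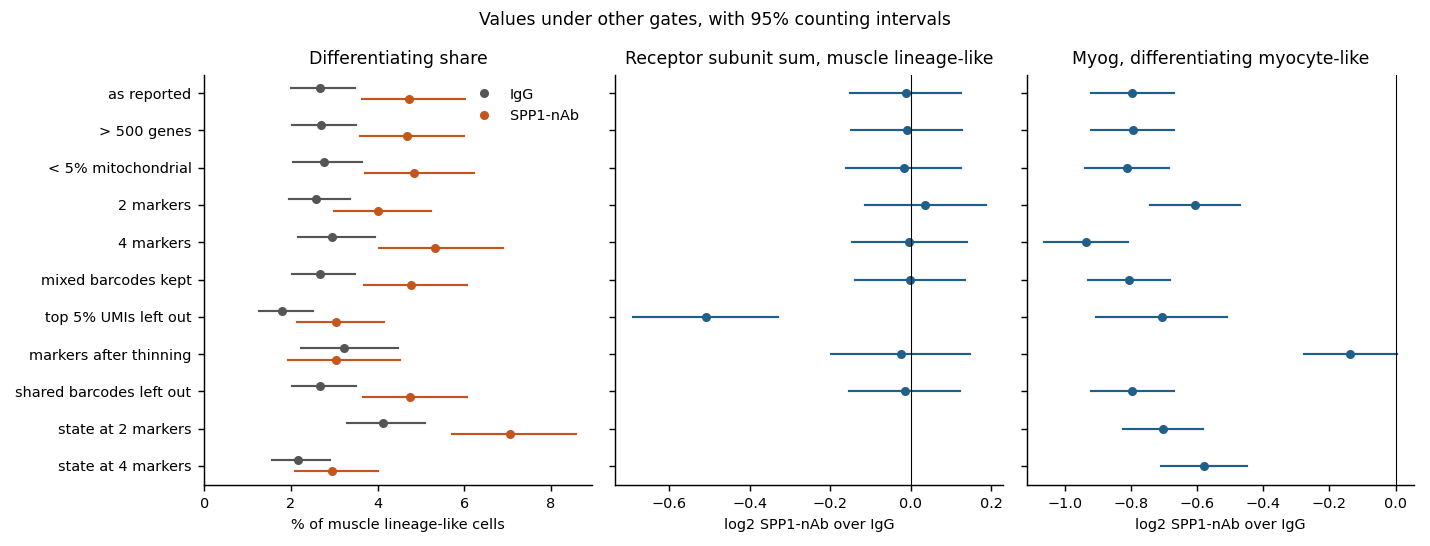
Differentiating share of muscle lineage-like cells (%, left), log2 ratio of SPP1-nAb over IgG of the subunit sum in muscle lineage-like cells (middle) and of Myog in differentiating cells (right), as reported and under other gates, with 95% counting intervals. The sum moved from -0.01 to -0.51 without the 5% of barcodes with the most UMIs, and Myog from -0.80 to -0.14 with markers counted after thinning, where the 2 shares were 3.22% and 3.03%.

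UMIs of the markers of other classes were counted in the muscle lineage-like cells, at levels that differed between the libraries for some classes. Whether these UMIs came from other cells or from the muscle cells themselves was not tested. The summed markers of Schwann cells were 148 CPM in the IgG library and 75.4 CPM in the other, with 3 of 10 markers at 0 in each. Those of mesenchymal cells were 336 and 240.9 CPM with none of 9 at 0. By state the mesenchymal sum was 384 and 300 CPM in satellite-like but 4.66 and 2.88 CPM in differentiating cells. The Schwann sum was 164 and 84.6 CPM in satellite-like and 39.6 and 34.5 CPM in differentiating cells. The summed markers of mononuclear phagocytes were 119 and 118 CPM with none of 10 at 0. Endothelial markers were lower in SPP1-nAb (63.9 and 30.4 CPM), and neutrophil (3.69 and 12.2 CPM) and dendritic markers (114 and 142.7 CPM) were higher. Musk, Gadd45a and Ncam1 were measured in Schwann-like and mesenchymal-like cells as well. The part of RNA from such cells, if any, in the ratios of these 3 members was not tested. Chrnb1 had 3 and 1 UMIs in Schwann-like cells, 2.30 and 0.637 CPM, and 3.26 and 2.85 CPM in mesenchymal-like cells. It had 10.9 and 4.26 CPM (17 and 4 UMIs) in tenocyte-like cells. In endothelial-like cells it had 7.71 and 18.2 CPM (5 and 12 UMIs). The part of RNA from these classes, if any, in the ratio of Chrnb1 was not tested either.

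The other genes of the synapse and of the denervation response were read from lists written with earlier results of these data known. Of 20 genes that organize the synapse 13 had at least 100 UMIs in muscle lineage-like cells, 0 were 2-fold higher or lower in SPP1-nAb, and their median log2 ratio was -0.03 beside 0.03 for all genes. Rapsn, the scaffold that holds receptors in clusters, had 79.4 and 75.4 CPM, -0.07 (-0.27 to 0.12). Ratios above 0 were found for the syntrophin Sntb1, 0.39 (0.11 to 0.68), the adaptor Crk, 0.27, and dystrobrevin, Dtna, 0.23 (-0.22 to 0.68). At the other end stood utrophin, Utrn, -0.33 (-0.44 to -0.23), Sntb2, -0.26, the ETS factor Etv5, -0.25 (-0.66 to 0.15), and the protein kinase A subunit Prkar1a, -0.12. In differentiating over satellite-like cells Macf1 and Sntb1 were at least 2-fold higher and Sntb2 and Lamb2 lower in both libraries, each with at least 100 UMIs over both states.

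Of 20 genes of the denervation response 16 had at least 100 UMIs, 1 was 2-fold higher and 1 lower in SPP1-nAb, and the median was -0.02. The higher one was Trim63, the muscle atrophy ubiquitin ligase MuRF1, with 6.04 and 14.7 CPM, 1.28 (0.70 to 1.89). It was followed by the small GTPase Rrad, 0.73, the TWEAK receptor Tnfrsf12a, 0.60 (0.51 to 0.69), and the cell cycle inhibitor Cdkn1a, 0.36. The lower one was Kcnn3, a calcium-activated potassium channel, with 33.9 and 14.0 CPM, -1.28 (-1.67 to -0.90). Fbxo21, an F-box protein, had -0.54 (-1.10 to 0.01), the AMP deaminase Ampd3 -0.43 and sarcolipin, Sln, -0.23 (-0.57 to 0.11). The list therefore showed no common direction between the libraries. Fbxo32, Cdkn1a and Sln were at least 2-fold higher in differentiating than in satellite-like cells in both libraries, and Gadd45b and Ampd3 lower, each with at least 100 UMIs over both states.

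The genes whose level ran most like the sum of the subunits were sought over 20 points, the 10 classes and muscle states with at least 50 cells, in each library, among 15380 genes. Pearson's r of log2(CPM + 1) was 0.940 for Popdc3, a Popeye domain protein, 0.931 for Jsrp1, a sarcoplasmic reticulum protein, 0.912 for Arpp21, 0.907 for Serinc2 and 0.905 for Myl12a, a myosin light chain. Of the members, Musk had 0.844, Myog 0.831, Ncam1 0.589, Gadd45a 0.452, Lrp4 0.194 and Chrne -0.09. The points share 2 libraries and states of 1 lineage, so these values describe likeness and nothing more. Popdc3 had 33.5 CPM in satellite-like and 197.9 CPM in differentiating cells of the IgG library, and 48.5 and 158.3 CPM in the SPP1-nAb library. These points entered the choice of Popdc3, so the order it shares with Chrna1 is no separate observation.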

How the data were processed

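The authors deposited UMI counts per gene and barcode for 1 IgG and 1 SPP1-nAb library, raw whole numbers after Cell Ranger's own choice of barcodes. The submitters' processing notes name Cell Ranger 8.0.0 and GRCm39, the matrix header 9.0.1. The methods name GRCm38 too. Removal of ambient RNA and doublets by the authors came later, is not in these counts and was not repeated here. No doublet caller was run, but barcodes with markers of several classes were left out of the classes.

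The members and lists were chosen with earlier results of these data known, and the thresholds of the gate after class sizes had been seen. Named list genes are up to 4 per direction with the largest ratio in muscle lineage-like cells among those with at least 100 UMIs there. 1 gene that this rule names is not reported here. Genes of like pattern are the 5 with the highest r. The satellite markers were Pax7, Calcr, Chodl, Myf5, Chrdl2, Fgfr4 and Heyl, and the differentiation markers Mymk, Mymx, Myh3, Actc1, Tnnt2, Myl4, Smyd1, Klhl41 and Rbm24.

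UMIs were summed per class and library and divided by the UMIs of the class (CPM). Intervals at 95% were exact Poisson (levels), exact Clopper-Pearson (shares) and exact binomial on the split of UMIs (ratios). With 0 UMIs the limit is that of 3 UMIs. Thinning drew 2000 UMIs per cell without replacement (seed 1), and left out 714 and 269 shallower muscle lineage-like cells of IgG and SPP1-nAb. The scripts were tested on simulated data. Alternatives were other gates, depths, minimums and comparison cells. Python 3.11.15, numpy 2.4.6, scipy 1.17.1, pandas 2.3.3 and matplotlib 3.10.9 were used. Gene positions came from GENCODE on GRCm39. Exons of Chrna1, Musk, Myog, Gadd45a and Ncam1 overlap long noncoding RNAs on the opposite strand. By the study's methods Cell Ranger was run with default parameters, which in these versions count exonic and intronic reads in the sense orientation.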

Additional observations from a re-analysis of the deposited data

Results flagged for a closer look

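For 3 members the ratio of SPP1-nAb over IgG lay on one side of 0 in some cell classes and on the other side in others, by more than the counting interval in each. The differences between classes were not tested, and each ratio compares 1 library with 1 library. How many of all genes meet the same rule was not counted, so the flag is not shown to be particular to these members. Myog had a log2 ratio of 1.41 (0.48 to 2.46) in mononuclear phagocyte-like cells and -0.80 in differentiating myocyte-like cells. The latter became -0.14 (-0.28 to 0.00) with markers counted after thinning, so that the opposite signs beyond the interval were lost there. The phagocyte-like value rests on 12 and 50 UMIs, the latter over 47 cells with at most 3 in 1 cell.

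Gadd45a had 0.18 in mesenchymal-like, 0.87 (0.45 to 1.29) in tenocyte-like and 0.28 in mononuclear phagocyte-like cells, against -1.32 (-2.48 to -0.26) in endothelial-like and -0.42 in satellite-like cells. The endothelial-like value rests on 27 and 11 UMIs, and 9 of the 27 were in 1 cell.

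Ncam1 had -0.41 in Schwann-like, -0.69 in tenocyte-like and -0.21 in satellite-like cells, and 3.41 (0.60 to 8.85) in mural-like and 3.64 (1.65 to 6.76) in dendritic-like cells. In the dendritic-like class all 28 Ncam1 UMIs of the SPP1-nAb library were in 1 cell, and in the mural-like class 5 of 10 were. The mural-like and dendritic-like values thus rest largely on single barcodes. Endothelial-like cells had 0 Ncam1 UMIs in IgG and 14 in SPP1-nAb, with a lower limit of the log2 ratio of 1.71. Those 14 were spread over 10 cells, with at most 3 in 1 cell.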

How the results depend on the processing

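No paired analysis was possible because each group is 1 library. Of 595 alternative values 525 stayed within the counting interval or 1.5 times the count, 69 moved and 1 reversed. Reversed means a change of sign where the interval of the reported log2 ratio excluded 0. The reversed value was Gadd45a in differentiating over satellite-like cells of SPP1-nAb, -0.56 with markers counted after thinning. Ratios whose interval included 0 could change sign without this label, as did Chrna1 in SPP1-nAb over IgG in the lineage, from 0.16 to -0.56. Size factors from the median ratio of genes shift log2 ratios by 0.03 in the lineage and 0.02 in differentiating cells.

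The subunit sum in muscle lineage-like over other cells (log2, IgG and SPP1-nAb) was 5.91 and 6.30 without the 5% of barcodes with the most UMIs, 5.14 and 5.48 against all remaining barcodes, 5.83 and 6.51 with markers counted after thinning, 5.51 and 5.98 with mixed barcodes kept in 1 class, and 7.57 and 8.88 with the phagocyte level subtracted. Its ratio of SPP1-nAb over IgG was -0.51 without the deepest 5%. The differentiating share became 1.80% and 3.03% without the deepest 5% and 4.13% and 7.04% at 2 or more markers, and in SPP1-nAb 2.94% at 4 or more and 3.03% with markers after thinning. Chrna1 was detected in 73.6% and 75.4% of differentiating cells without thinning, 24.5% and 23.3% at 1000 UMIs, and 56.5% in SPP1-nAb with markers after thinning. Genes 2-fold higher and lower in SPP1-nAb numbered 2772 and 2584 with a minimum of 1 UMI, 297 and 331 with 20, 43 and 62 with markers after thinning, and 63 were lower without the deepest 5%. At 1 UMI, 4807 and 5966 genes were higher in muscle lineage-like cells. The causes were not tested, beyond the fewer UMIs per gene that a lower minimum admits. In satellite-like cells Myog was -0.83 without the deepest 5% and -0.90 with markers after thinning, in place of 0.67. Barcodes left out as shared by the libraries moved none of these. Low UMI counts limit Chrnd, Chrng, Chrne and Lrp4 most.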

Other observations

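The 11 nicotinic subunits of the neuronal type together had 16.6 CPM (99 UMIs) in IgG and 14.3 CPM (81 UMIs) in SPP1-nAb muscle lineage-like cells, against 1.69 and 1.94 CPM in the other gated cells. Of these genes only Chrna7, a subunit that forms receptors by itself, had at least 100 UMIs over both libraries there, with 63 UMIs (10.6 CPM) in IgG and 70 UMIs (12.4 CPM) in SPP1-nAb, a log2 ratio of 0.23 (-0.29 to 0.74). Chrna7 had no UMI in the differentiating myocyte-like cells of either library. Chrna4, named after its values were seen, had 10 UMIs (23.3 CPM) in those of the IgG library and 0 in those of the SPP1-nAb library, where 3 UMIs would be 4.32 CPM.

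Of the 10 genes of mature fibers 9 had at least 100 UMIs in muscle lineage-like cells, and 1 of them was 2-fold higher in SPP1-nAb. This was Myh4, the myosin of the fastest fibers, with 12.1 and 38.3 CPM, 1.67 (1.27 to 2.07). The regulatory light chain Mylpf had 0.48, the troponins Tnnt3 and Tnnc2 0.42 and 0.38, and the median of the 9 was 0.32 beside 0.03 for all genes. These lineage ratios also hold the mix of states. In differentiating cells Myh4 had 1.65, Tnnt3 0.25, Tnnc2 0.23 and Mylpf -0.02, and the sum of the 10 genes was 26194 and 26301 CPM. In muscle lineage-like cells of neither state that sum was 13247 (IgG) and 3632 CPM (SPP1-nAb). All 9 were at least 2-fold higher in differentiating than in satellite-like cells in each library, Myh4 on under 100 UMIs in IgG.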
